A study of Mus musculus with 18 samples.

Results

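The 10 genes described here handle iron and heme in liver: Hamp, Hamp2, Slc40a1, Tfr2, Tfrc, Fth1, Ftl1, Hmox1, Cd163 and Spic. They were chosen by symbol, 10 of the 33235 genes in each deposited table, with results of these same comparisons known, so their values are given as a description and no p-value is printed for them. Livers came from mice given a GalNAc-linked antisense oligonucleotide (ASO) against Mdm2, whose genotype label reads MDM2 knockdown, or a GalNAc-linked control ASO, labelled WT. GalNAc is a sugar bound by the asialoglycoprotein receptor, a receptor of hepatocytes. The ASOs were given on a diet labelled HFHC, which the labels do not spell out, or on CDAHFD, a high-fat diet of defined amino acids without choline that is used as a model of steatohepatitis. Strain, age, sex, dose and duration are not given in the sources used here. On HFHC, Mdm2 ASO replicates 6 and 7 held the same value in every gene and count as 1 library, called 6-7, so that 3 Mdm2 ASO libraries (6-7, 9 and 10) stand against 4 control ASO libraries (1, 2, 4 and 5). On CDAHFD there were 5 libraries of each, Mdm2 ASO replicates 6 to 10 and control ASO replicates 1 to 5. The labels do not say that each library is a separate mouse, so p-values measure the spread between these libraries. The test used pools that spread in part over genes of similar level.

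Values are normalized counts, which were scaled within each diet's table, so levels are compared within a diet only. Libraries held 17.8 to 18.8 M reads on HFHC and 22.4 to 31.5 M on CDAHFD. Mdm2 itself stood at 362 ± 58.2 with the Mdm2 ASO and 945 ± 25.6 with the control ASO on HFHC (SD, n = 3 and 4), which is 38.3% of control (limma-trend, Benjamini-Hochberg adjusted p = 1.1e-05). On CDAHFD it stood at 647 ± 124 and 1565 ± 87.7 (SD, n = 5 each), 41.3% of control (adjusted p = 3.1e-05). The hepatocyte genes Alb, Ttr and Apoa1 were abundant in every library, as the label liver implies, with Alb at 1259000 ± 361920 normalized counts with the Mdm2 ASO and 860720 ± 111310 in controls on HFHC (SD, n = 3 and 4). Over all genes, 5331 of 17441 (30.6%) passed an adjusted p of 0.05 on HFHC, 2181 of 16803 (13.0%) on CDAHFD, and 3832 of 16333 (23.5%) for the difference between diets, that is, the CDAHFD effect minus the HFHC effect. Without control replicate 2 the CDAHFD count was 1232, and without Mdm2 ASO replicate 8 it was 1426.

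Iron in the blood travels bound to transferrin and enters cells through the transferrin receptor encoded by Tfrc. Ferritin, a shell of heavy (Fth1) and light (Ftl1) chains, stores iron, and ferroportin, encoded by Slc40a1, is the route by which cells release it. Hepatocytes secrete hepcidin, the product of Hamp, which makes cells withdraw ferroportin from their surface and so lowers iron release, while macrophages of liver and spleen take up old red cells and free their heme iron through heme oxygenase 1, encoded by Hmox1. Iron regulatory proteins bind a stem and loop in some of these mRNAs, the iron-responsive element: in the 5′ UTR the bound protein limits translation, and in the 3′ UTR it protects the mRNA from decay.

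These elements are shown because they set apart the members whose mRNA levels can follow iron directly from those that iron acts on through translation. The letters searched were a C, 5 bases, a loop of CAGTGN and 5 bases pairing with the first 5 (G-T pairs allowed), a pattern chosen after the values were known. It was found 7 times, in 4 of the 10 members, in GENCODE M21 transcripts on GRCm38, and 294 of 21901 protein-coding genes (1.342%) held it. The loop is in capitals. Fth1 and Ftl1 carry nearly the same element and Slc40a1 a different stem, each once in the 5′ UTR, at chr19:9982738-9982754 (plus strand), chr7:45459785-45459801 (minus strand) and chr1:45925471-45925487 (minus strand). Tfrc carries the pattern 4 times in its 3′ UTR on the plus strand, at chr16:32631225-32631241, chr16:32631604-32631620, chr16:32631669-32631685 and chr16:32631716-32631732.
Fth1: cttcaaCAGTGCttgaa
Ftl1: cttcaaCAGTGTttgaa
Slc40a1: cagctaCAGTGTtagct
Tfrc, copy 1: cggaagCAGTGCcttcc
Tfrc, copy 2: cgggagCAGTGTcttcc
Tfrc, copy 3: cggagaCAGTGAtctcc
Tfrc, copy 4: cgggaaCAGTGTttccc

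Hamp and Hamp2 lie near each other on mouse chromosome 7, and their promoters are shown because both genes were very low in the same HFHC library. The windows are the 250 bases before each start in RefSeq (GRCm38.p6), chr7:30944030-30944279 for Hamp and chr7:30924182-30924431 for Hamp2, both on the minus strand. Capitals mark matches to GGCGCC, the core at which SMAD proteins answer bone morphogenetic protein (BMP) signals, and TTCNNNGAA, the STAT core through which interleukin 6 acts. Both strands were searched.
Hamp: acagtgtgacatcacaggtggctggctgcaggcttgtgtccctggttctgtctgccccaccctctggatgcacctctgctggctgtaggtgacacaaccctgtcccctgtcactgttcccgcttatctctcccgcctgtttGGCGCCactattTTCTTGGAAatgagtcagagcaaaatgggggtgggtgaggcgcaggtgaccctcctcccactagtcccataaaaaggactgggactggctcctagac
Hamp2: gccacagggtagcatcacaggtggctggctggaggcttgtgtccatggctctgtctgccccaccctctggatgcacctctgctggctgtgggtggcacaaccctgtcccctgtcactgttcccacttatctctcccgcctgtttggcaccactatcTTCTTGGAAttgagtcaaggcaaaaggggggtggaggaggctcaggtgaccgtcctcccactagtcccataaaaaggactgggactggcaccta
Hamp held GGCGCC at 109 to 104 bases before its start and TTCTTGGAA at 97 to 89 bases before it. Hamp2 held TTCTTGGAA at 94 to 86 bases before its start and no GGCGCC, where the aligned letters differ by G4A (Hamp base first, positions counted from 1 in GGCGCC). The windows matched in 227 of 253 aligned positions (89.7%). Of 32851 promoter windows in the table, 9.586% held GGCGCC and 7.02% held TTCNNNGAA. For 8 of the 10 members the table had a window. Hmox1 and Slc40a1 had none, so their promoters were not searched. Besides Hamp and Hamp2, Tfrc alone held either core, a GGCGCC at 89 to 84 bases before its start. None of the 8 held TGANNNNGC, the antioxidant response core (35.198% of all windows), CACGTG, the E-box (6.021%), or GAGGAA, the core of PU.1 family factors such as Spi-C (23.253%). A match is a run of letters and was not tested as a site.

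**Figure D1:**
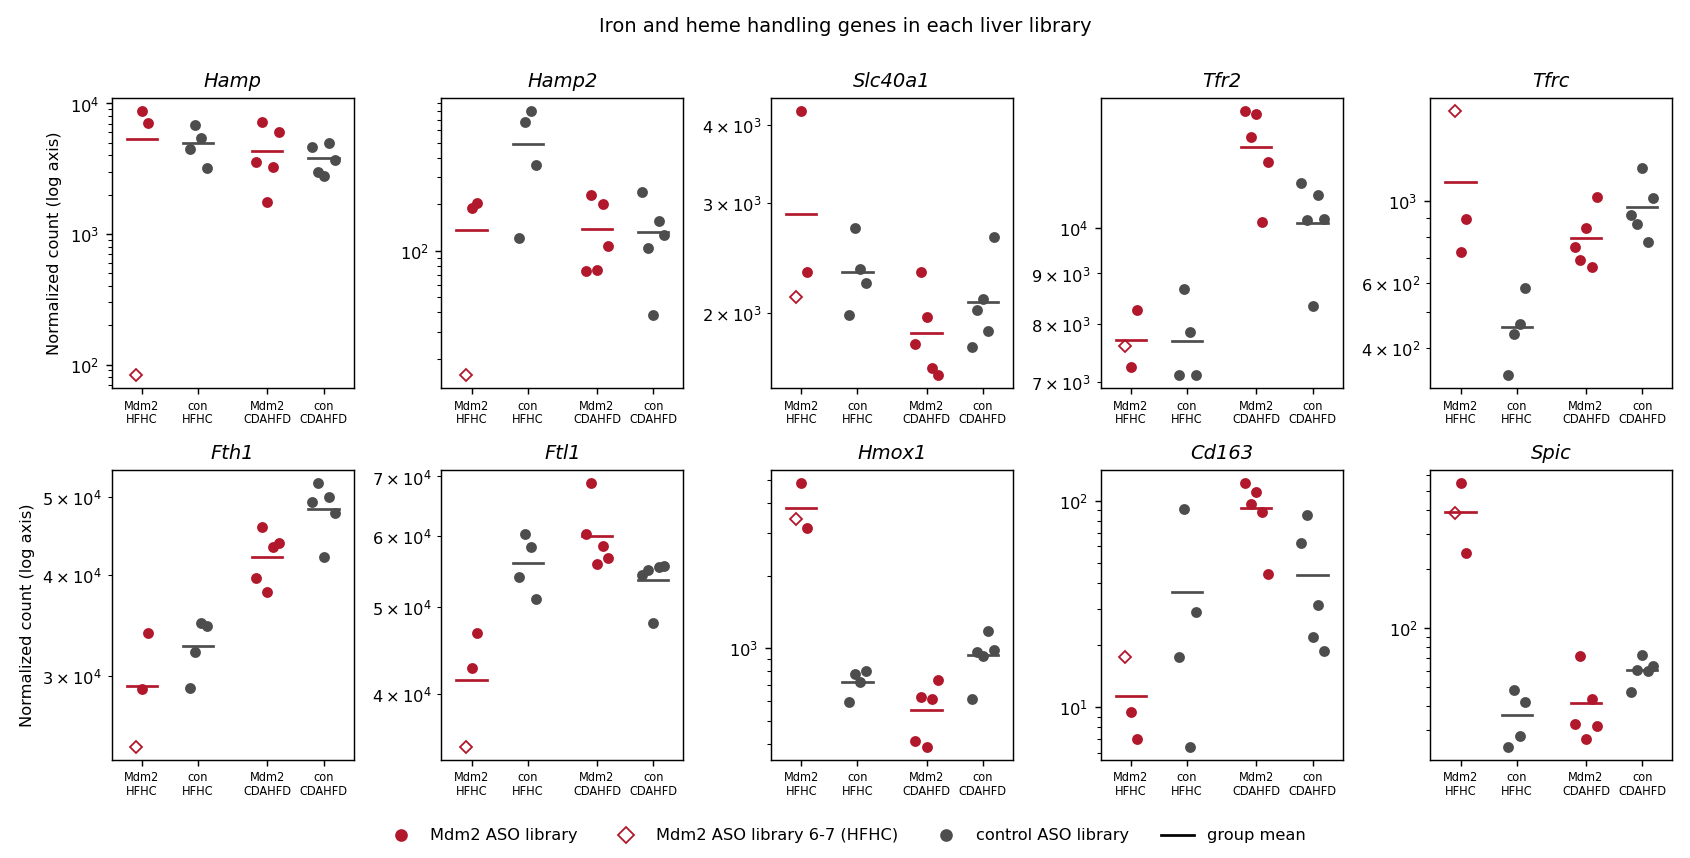
Normalized counts (log axis) of the 10 genes in each liver library, with Mdm2 ASO left of control ASO on each diet. Points are libraries, the open diamond is HFHC Mdm2 ASO library 6-7, and lines are group means. Hmox1, Spic and Tfrc sit above all controls on HFHC, and library 6-7 is lowest for Hamp and Hamp2. Levels are not comparable between diets.

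On HFHC, Hmox1, Spic and Tfrc were higher with the Mdm2 ASO and Ftl1 was lower with no overlap between groups, while Hamp was very low in 1 library and above all controls in the other Mdm2 ASO libraries. On CDAHFD, Ftl1 was higher with no overlap between groups. Hmox1 was lower there with overlapping groups, and the groups of the other members overlapped too, with Cd163 above all controls in 4 of 5 Mdm2 ASO libraries. On HFHC 3 of the 10 members passed as higher and 0 as lower, where 16.8% of all genes tested passed as higher and 13.8% as lower. On CDAHFD 0 passed as higher and 1 as lower, against 6.12% and 6.86% of all genes. For the difference between diets 1 member passed as higher and 3 as lower, against 9.83% and 13.6%. Groups did not overlap for 4 of 10 members on HFHC (38.7% of all genes) and 1 of 10 on CDAHFD (10.6%). All 10 members passed the filter on low values on both diets. Because the members were selected with these contrasts in view, nothing is read from these counts.

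Ranked by mean normalized count per kilobase of annotated exon, Ftl1 was first in all 4 groups, at 30963 ± 4511 with the Mdm2 ASO and 41760 ± 3121 with the control ASO on HFHC (SD per kilobase). Hamp and Fth1 took the next ranks in every group. Their ranges overlapped in all 4 groups, as in HFHC controls, where Hamp ran between 7836 and 16782 per kilobase and Fth1 between 8357 and 10047. Hmox1 ranked 4 by level per kilobase with the Mdm2 ASO on HFHC, at 2178 ± 518, and 6 in HFHC controls, at 414 ± 52.9. Its range in those controls, 341 to 459 per kilobase, lay inside that of Hamp2, 207 to 1364. Cd163 and Spic were the lowest of the 10 per kilobase in every group. The exon length of a gene joins all its annotated isoforms, so a gene with long rare isoforms, such as Fth1, is understated per kilobase.

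Of the 10 members, Hamp had the largest standard error of its log2 fold change on HFHC. On that diet, Hamp had 83.3, 8699 and 7127 normalized counts in Mdm2 ASO libraries 6-7, 9 and 10, against 4455, 6881, 5393 and 3213 in control libraries 1, 2, 4 and 5. Library 6-7 rests on 90 reads of Hamp and stands far below every other library, while libraries 9 and 10 are above all controls. The mean log2 fold change was -1.47 (SE 1.35), and without library 6-7 it was 0.71 (SE 0.25). With library 6-7 kept, it was 0.09 with edgeR and 0.08 (SE 1.17) with DESeq2, so its sign depends on that library and on the model. Hamp2, a second hepcidin gene of the mouse, had 15.7, 187 and 204 normalized counts with the Mdm2 ASO, against 121, 679, 795 and 356 in controls. Here too library 6-7 was the lowest, but libraries 9 and 10 lay below 3 of the 4 controls, unlike Hamp. The log2 fold change of Hamp2 was -2.19 (SE 0.91), and -1.0 (SE 0.63) without library 6-7.

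On CDAHFD, Hamp had 3568, 7184, 1748, 3278 and 6006 normalized counts in Mdm2 ASO replicates 6 to 10, against 4646, 2987, 2782, 5017 and 3662 in control replicates 1 to 5. The groups overlapped widely, with a log2 fold change of 0.06 (SE 0.30). Hamp2 ran from 74.4 to 230.3 normalized counts with the Mdm2 ASO and from 38.5 to 238 in controls (0.11 on the log2 scale, SE 0.43), with a difference between diets of 2.31 (SE 1.03) that did not pass. Between diets, the log2 effect of the Mdm2 ASO on Hamp differed by 1.53 (SE 1.32) and -0.65 (SE 0.51) without library 6-7. The ratio of Hamp to Hamp2 normalized counts ran from 5.29 to 46.5 with the Mdm2 ASO and from 6.78 to 36.9 in controls on HFHC. The 2 transcripts matched in 388 of 437 aligned bases (88.8%) and shared 60 of 361 (16.6%) of Hamp's windows of 50 bases and 0 of 100 bases, so short reads from part of the sequence could be counted for either gene.

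Library 6-7 also stood apart for red blood cell genes. The summed level of 11 matched red cell markers was 29144, 12959 and 9712 normalized counts in Mdm2 ASO libraries 6-7, 9 and 10, against 1720, 4141, 3041 and 3739 in controls. All 11 rose on HFHC (median log2 fold change 2.81, where the median of all genes was -0.01). Hba-a1, an alpha globin gene, averaged 5051 ± 2776 with the Mdm2 ASO and 1047 ± 326 in controls (SD, n = 3 and 4, limma-trend adjusted p = 0.00142). On CDAHFD 0 of 8 tested red cell genes passed, with summed levels of 3587 to 6601 with the Mdm2 ASO and 1085 to 10134 in controls. The part of red cells in the members' values was not tested. Mdm2 in library 6-7 was at 420 normalized counts, the highest of the 3 Mdm2 ASO libraries and below all controls.

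**Figure D2:**
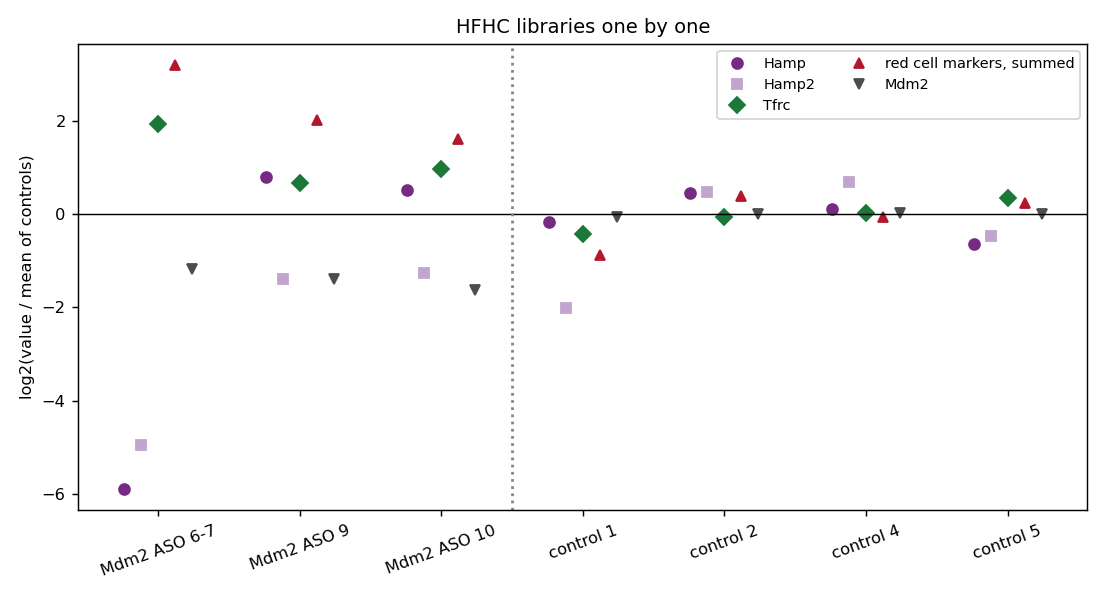
Hamp, Hamp2, Tfrc, Mdm2 and the sum of 11 red cell markers in each HFHC library, as the log2 of the value over the mean of the 4 control ASO libraries, with Mdm2 ASO libraries on the left. Library 6-7 has the lowest Hamp and Hamp2 and the highest Tfrc and red cell sum of the 7 libraries.

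Of the receptors, Tfr2, which senses iron-loaded transferrin on hepatocytes, had 7610, 7249 and 8276 normalized counts with the Mdm2 ASO on HFHC, against 7112, 8685, 7859 and 7117 in controls. The groups overlapped, and the log2 fold change was 0.01 (SE 0.10). On CDAHFD Tfr2 ran from 10152 to 13115 with the Mdm2 ASO, median 12352, and from 8340 to 11109 in controls, median 10224, a log2 fold change of 0.25 (SE 0.10). Tfrc, the uptake receptor present on most dividing cells, had 1754, 729 and 897 normalized counts with the Mdm2 ASO on HFHC, against 338, 437, 465 and 580 in controls. All 3 Mdm2 ASO libraries were above all controls, and 6-7 was the highest. The means were 1127 ± 550 and 455 ± 99.6 (SD, n = 3 and 4), with a log2 fold change of 1.23 (SE 0.28), and 0.86 (SE 0.19) without library 6-7. On CDAHFD Tfrc had 751, 694, 848, 663 and 1024 normalized counts with the Mdm2 ASO, against 918, 867, 1228, 776 and 1020 in controls. The groups overlapped, with a log2 fold change of -0.27 (SE 0.14). Its difference between diets was -1.50 (SE 0.31), and -1.13 (SE 0.25) without library 6-7.

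Slc40a1, the iron exporter, had 2123, 4203 and 2323 normalized counts with the Mdm2 ASO on HFHC, against 1986, 2738, 2354 and 2236 in controls. Library 9 alone lay above the control range. The log2 fold change was 0.25 (SE 0.21), and -0.06 (SE 0.13) without library 9. On CDAHFD Slc40a1 ran from 1594 to 2328 normalized counts with the Mdm2 ASO and from 1766 to 2643 in controls (-0.16 on the log2 scale, SE 0.12).

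The ferritin chains, heavy and light, form the iron store of the hepatocyte. On HFHC, Ftl1 had 34929, 42707 and 46834 normalized counts with the Mdm2 ASO, against 54005, 60290, 58447 and 51090 in controls. All 3 Mdm2 ASO libraries were below all controls, with means of 41490 ± 6045 and 55958 ± 4182 and a log2 fold change of -0.44 (SE 0.17). Fth1 had 24501, 28894 and 33928 normalized counts with the Mdm2 ASO, against 28989, 32094, 34854 and 34551 in controls. These groups overlapped (-0.17 on the log2 scale, SE 0.15). Under quantile scaling, which lowered the median of all genes to -0.11, the log2 fold changes on HFHC were -0.16 for Ftl1, 0.04 for Fth1 and 0.16 for Tfr2.

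On CDAHFD, Ftl1 had 60336, 68824, 55943, 58465 and 56734 normalized counts with the Mdm2 ASO, against 54346, 54998, 47955, 55387 and 55642 in controls. The lowest Mdm2 ASO library exceeded the highest control by a small margin, and the log2 fold change was 0.16 (SE 0.12). Fth1 ran from 38050 to 45803 with the Mdm2 ASO, median 43329, and from 42149 to 51986 in controls, median 49297, with a log2 fold change of -0.19 (SE 0.11). Between diets, the log2 effects differed by 0.60 (SE 0.18) for Ftl1 and -0.02 for Fth1.

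A ratio within a library does not depend on how libraries were scaled. Fth1 over Ftl1 normalized counts was 0.702, 0.677 and 0.724 with the Mdm2 ASO on HFHC, against 0.537, 0.532, 0.596 and 0.676 in controls. All 3 Mdm2 ASO libraries lay above all controls, the gap between library 9 and control 5 being very small. On CDAHFD the ratio ran from 0.657 to 0.773 with the Mdm2 ASO and from 0.857 to 0.945 in controls, the opposite order, again with no overlap. The ratio shows unequal change of the chains and not which of them changed. Reads of ferritin pseudogenes could be counted with the parent genes. The one such row given here, Ftl1-ps2, stood at 146 ± 26.8 with the Mdm2 ASO and 157 ± 31.3 in controls on HFHC, and at 182 ± 17.8 and 150 ± 18.4 on CDAHFD, far below Ftl1.

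**Figure D3:**
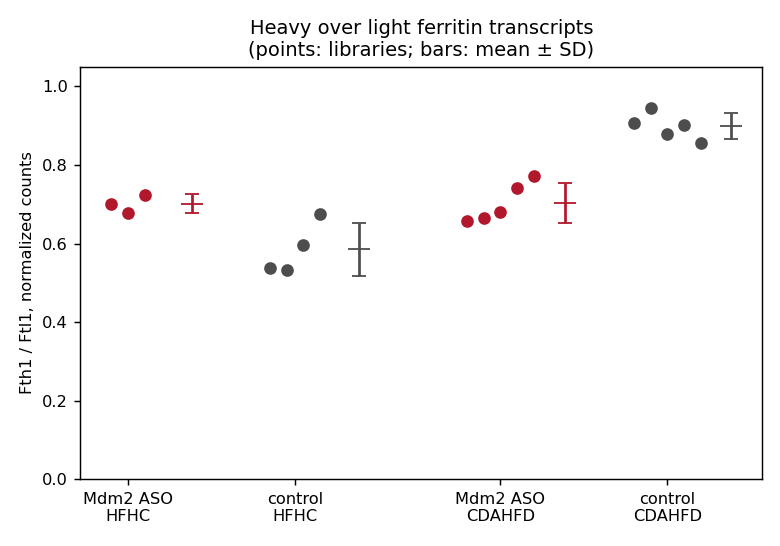
Fth1 over Ftl1 normalized counts in each library, with Mdm2 ASO left of control ASO on each diet. Points are libraries and bars are the mean ± SD. The Mdm2 ASO libraries lie above all controls on HFHC (0.677 to 0.724 against 0.532 to 0.676) and below all controls on CDAHFD (0.657 to 0.773 against 0.857 to 0.945).

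Hmox1, which opens the heme ring and frees its iron, had 3449, 4846 and 3148 normalized counts with the Mdm2 ASO on HFHC, against 597, 779, 721 and 804 in controls. Every Mdm2 ASO library was several times above every control. The means were 3815 ± 906 and 725 ± 92.6 (SD, n = 3 and 4), a 5.26-fold ratio, with a log2 fold change of 2.38 (SE 0.15) and 2.44 (SE 0.17) without library 6-7. On CDAHFD it had 413, 624.9, 390, 613 and 734 normalized counts with the Mdm2 ASO, against 617, 967, 925, 1181 and 981 in controls. All but control 1 were above every Mdm2 ASO library. The means were 555 ± 148 and 934 ± 203 (SD, n = 5 each), a log2 fold change of -0.76 (SE 0.19), and the difference between diets was -3.14 (SE 0.29).

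Spic encodes Spi-C, a transcription factor that heme induces and that red pulp and other iron-recycling macrophages need. It had 384, 549 and 241 normalized counts with the Mdm2 ASO on HFHC, against 24.8, 48.3, 28 and 42.0 in controls. All 3 libraries were well above all controls, a 10.9-fold ratio of means (391 ± 154 and 35.8 ± 11.2) and a log2 fold change of 3.41 (SE 0.31), or 3.38 (SE 0.37) without library 6-7. On CDAHFD Spic had 32.5, 72.2, 27.2, 43.1 and 31.7 normalized counts with the Mdm2 ASO, against 47.2, 61.0, 72.5, 60.4 and 63.6 in controls. Library 7 lay among the controls and the other Mdm2 ASO libraries below all of them (-0.63 on the log2 scale, SE 0.27). Its difference between diets was -4.04 (SE 0.42).

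Cd163, the macrophage receptor for hemoglobin bound to haptoglobin, did not move with Hmox1 and Spic. On HFHC it had 17.6, 9.46 and 7.07 normalized counts with the Mdm2 ASO, against 17.5, 90.9, 6.47 and 29.0 in controls, where control 2 stands far above the rest. The groups overlapped, and the log2 fold change was -1.12 (SE 0.74) from 7 to 19 reads a library with the Mdm2 ASO and 6 to 81 in controls. On CDAHFD it had 121, 96.3, 110 and 88.1 normalized counts in Mdm2 ASO replicates 6 to 9 and 44.1 in replicate 10, against 62.2, 85.1, 22.0, 31.4 and 18.7 in controls. Replicates 6 to 9 lay above all controls and replicate 10 among them. The log2 fold change was 1.22 (SE 0.40), which did not pass, but passed without replicate 10 (1.47), control 1 (1.41) or control 2 (1.52), and with DESeq2 (1.08). Its difference between diets was 2.35 (SE 0.86), which did not pass but did in 8 of 25 alternatives.

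Many markers of macrophages, but not all, rose with Hmox1 and Spic on HFHC. The summed level of 11 Kupffer cell markers, the resident macrophages of liver, was 33975 to 39298 normalized counts with the Mdm2 ASO and 8620 to 14236 in controls, and 7 of 11 rose and 0 fell. A large part of that sum was C1qa, C1qb and C1qc, with means of 5415, 7192 and 7103 against 1359, 1416 and 1552. Csf1r, the receptor for a macrophage growth factor, averaged 3907 ± 410 and 1067 ± 238 (adjusted p = 1.9e-05). Cd5l, a scavenger protein of macrophages, averaged 8066 ± 1109 and 3493 ± 1073 (adjusted p = 0.00225), and Folr2, a folate receptor of resident macrophages, 370.3 ± 33.2 and 194 ± 69.0 (adjusted p = 0.0138). The 4 that did not pass were Clec4f, at 1430 ± 161 and 1198 ± 422 (adjusted p = 0.341), Vsig4, Timd4 and Marco. Vsig4 stood at 730 ± 53.2 and 526 ± 246 (adjusted p = 0.194), and Timd4 at 59.4 ± 23.5 and 76.1 ± 58.1 (adjusted p = 0.95). Marco stood at 560 ± 694 and 186 ± 188 (adjusted p = 0.336). Of 14 markers of monocytes, macrophages and neutrophils, 9 rose and 2 fell, with summed levels of 14696 to 17666 and 8193 to 15346. Among those that rose, Itgam averaged 501 ± 102 and 37.3 ± 9.51 (adjusted p = 1.9e-06), and Itgax 5041 ± 458 and 254 ± 84.9 (adjusted p = 1.3e-06). Ly6c2 averaged 96.0 ± 16.0 and 22.9 ± 10.6 (adjusted p = 0.00226). The 2 that fell were Gpnmb, at 260 ± 58.8 and 763 ± 74.8 (adjusted p = 3.9e-05), and Spp1, at 1969 ± 441 and 6205 ± 3232 (adjusted p = 0.0103). Spp1 was a large part of the control sums, which overlapped those of the Mdm2 ASO libraries. Of 6 tested markers of splenic red pulp macrophages and spleen 3 rose and 0 fell, with sums of 2223 to 2727 and 688 to 785. Of these, Itgad, an integrin of red pulp macrophages, had 1083, 1046 and 1146 normalized counts with the Mdm2 ASO, against 4.13, 1.12, 2.16 and 19.0 in controls, while the spleen-defining factors Nkx2-5 and Tlx1 were at 0 in all 7 HFHC libraries. Sinusoidal endothelial markers rose in 7 of 9 (summed 6661 to 7163 and 4855 to 5346). Of 10 hepatocyte genes 0 passed, although the Mdm2 ASO libraries lay above all controls for Alb and below them for Apoa1. Of 10 acute phase genes 2 rose and 4 fell. In whole liver, more cells of a type and more RNA per cell cannot be told apart. The part of these cells in the values of the members, and of the pathway genes below, was not tested.

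On CDAHFD few genes of the same lists passed. Of 11 Kupffer cell markers 0 rose and 1 fell, Cd5l (793 ± 219 with the Mdm2 ASO and 1420 ± 371 in controls, adjusted p = 0.0174). Summed Kupffer levels were 5947 to 9479 with the Mdm2 ASO and 6299 to 11002 in controls. Of the 14 monocyte, macrophage and neutrophil markers 0 passed (summed 10919 to 26801 and 11370 to 20969), and of 5 splenic ones 1 rose, Itgad at 29.9 ± 40.3 and 2.30 ± 1.94 (adjusted p = 0.021), with sums of 535 to 932 and 551 to 973. The Itgad mean rests largely on Mdm2 ASO replicate 7, at 102 normalized counts. Its groups overlapped at low levels, with 4.54 in the lowest Mdm2 ASO library and 5.36 in the highest control. Sinusoidal markers had 1 of 9 higher, hepatocyte markers 2 of 10 higher, and acute phase genes 1 higher and 1 lower of 10.

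**Figure D4:**
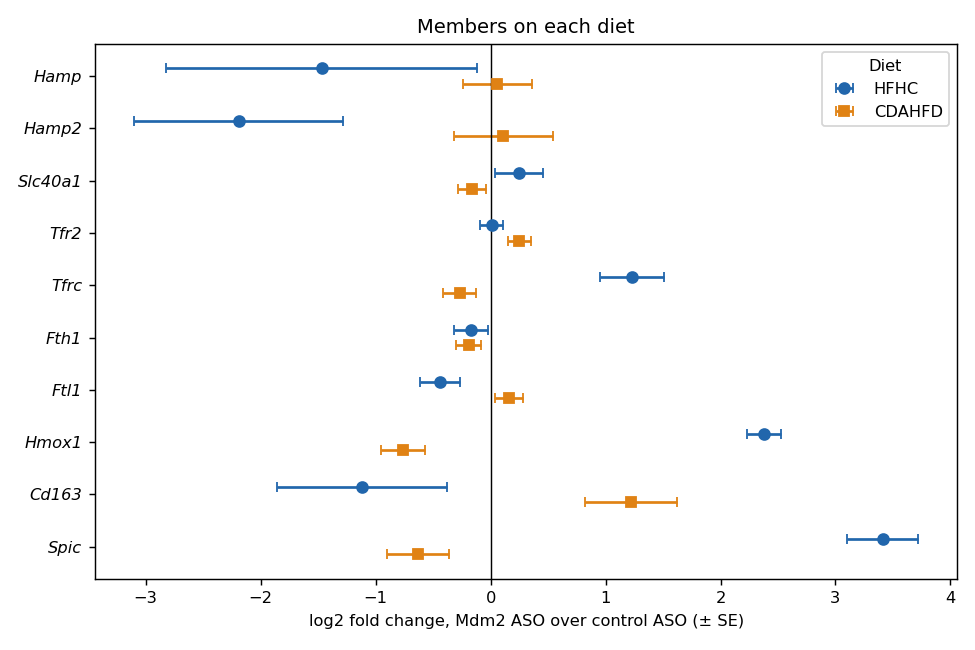
Log2 fold change of each member, Mdm2 ASO over control ASO, on HFHC (circles) and CDAHFD (squares), with bars of 1 standard error. Hmox1, Spic and Tfrc lie right of 0 on HFHC and left of 0 on CDAHFD. Hamp and Hamp2 have the longest bars, from HFHC.

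Beyond the members, 78 further genes of iron and heme pathways were followed in 5 lists. On HFHC 14 of 77 tested rose and 21 fell (median log2 fold change -0.05), on CDAHFD 10 of 75 rose and 12 fell (median -0.01), and for the difference between diets 10 of 75 were higher and 10 lower. Of all genes tested, 16.8% rose and 13.8% fell on HFHC, and 6.12% rose and 6.86% fell on CDAHFD. The HFHC count of 35 was 22 without Mdm2 ASO replicate 9. Adjusted p-values below are those of limma-trend with Benjamini-Hochberg adjustment over all genes.

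Of 22 hepcidin control genes, 7 rose and 3 fell on HFHC (median 0.09), and 12 did not pass. Hfe, which binds both transferrin receptors and whose loss causes hemochromatosis, averaged 2016 ± 120 with the Mdm2 ASO and 955 ± 76.1 in controls (log2 fold change 1.08, SE 0.08, adjusted p = 1.2e-05). Hjv, the BMP co-receptor hemojuvelin that Hamp expression needs, went the other way at 1661 ± 188 and 3675 ± 206 (-1.15, SE 0.09, adjusted p = 1.3e-05). Smad1, which carries the BMP signal to the nucleus, rose by 1.06 (adjusted p = 2.4e-05), and Stat3, the carrier of the interleukin 6 signal, by 0.54 (adjusted p = 0.00292). Bmpr1a, a BMP receptor, fell by 0.51 (adjusted p = 7.7e-04). Bmp6, the main iron-responsive BMP, stood at 98.3 ± 22.7 and 81.1 ± 20.2 and did not pass (adjusted p = 0.387). Id1, a BMP target, stood at 205 ± 44.8 and 277 ± 78.4 (adjusted p = 0.199), and Tmprss6, a protease that cleaves hemojuvelin, at 6574 ± 694 and 8028 ± 754 (adjusted p = 0.0706). Unlike Id1, Smad6 and Smad7, also BMP targets, rose by 0.47 (adjusted p = 0.0239) and 0.38 (adjusted p = 0.0328). Atoh8, in the same list, stood at 716 ± 471 and 577 ± 56.4 (0.03, SE 0.44, adjusted p = 0.97). On CDAHFD 1 of 21 rose, Acvr1, a BMP receptor (0.32, adjusted p = 0.0281, not passed in 7 of 17 alternatives), and 1 fell, Bmpr1a (-0.45, adjusted p = 0.00927). For the difference between diets 1 of 21 was higher and 5 lower, among them Hfe (-1.14, adjusted p = 3.5e-06), Smad1 (-1.06, adjusted p = 2.2e-05) and Hjv (0.92, adjusted p = 4.7e-05).

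Among genes of uptake and transfer, 2 of 16 rose and 4 fell on HFHC (median -0.05), and 2 of 15 rose and 6 fell on CDAHFD (median -0.38). Steap3, the endosomal reductase that works with the transferrin receptor, averaged 400 ± 20.7 with the Mdm2 ASO and 730 ± 35.4 in controls on HFHC (-0.87, adjusted p = 3.1e-05), and 634 ± 68.0 and 1019 ± 34.9 on CDAHFD (-0.69, adjusted p = 4.3e-04). Cp, the ferroxidase ceruloplasmin that loads iron onto transferrin, fell by 0.65 on HFHC (adjusted p = 0.00219) and by 0.82 on CDAHFD (adjusted p = 2.7e-04). Slc11a2, the divalent metal transporter DMT1, fell by 0.60 (adjusted p = 0.0143) and by 0.67 (adjusted p = 6.5e-04). Steap2, another metalloreductase, fell by 0.90 (adjusted p = 0.00638) and by 0.80 (adjusted p = 0.0179). Scara5, a ferritin receptor, averaged 399 ± 193 and 77.6 ± 28.6 on HFHC (2.29, adjusted p = 0.00264). On CDAHFD Slc25a37, the mitochondrial iron importer mitoferrin 1, rose by 0.62 (adjusted p = 0.00287), and Lcn2, a protein that binds iron-carrying siderophores, fell by 1.02 (adjusted p = 0.00984). The difference between diets passed for 1 of 15, Steap4 (-0.75, adjusted p = 0.00858). Transferrin itself averaged 250960 ± 52997 and 269660 ± 31851 on HFHC (adjusted p = 0.832) and 222700 ± 4601 and 341900 ± 66277 on CDAHFD (adjusted p = 0.0779). On CDAHFD its Mdm2 ASO libraries lay below all controls (217040 to 227660 against 251050 to 420250).

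Iron sensing and ferritin turnover had 0 of 9 higher and 3 lower on HFHC (median -0.11), and 1 higher and 1 lower on CDAHFD (median -0.13). Pcbp4, of a family that includes iron chaperones, averaged 732 ± 66.8 and 1158 ± 89.3 on HFHC (-0.66, adjusted p = 5.2e-04) but 2212 ± 394 and 1389 ± 189 on CDAHFD (0.66, adjusted p = 0.00453), a difference of 1.33 (adjusted p = 3.1e-05). Aco1, which is iron regulatory protein 1 when it lacks its iron-sulfur cluster, fell by 0.37 on HFHC (adjusted p = 0.0477), and Slc25a39, a mitochondrial glutathione carrier, by 0.34 (adjusted p = 0.0414). Neither passed without library 6-7 (adjusted p = 0.139 and 0.113). Pcbp2, an iron chaperone, fell by 0.38 on CDAHFD (adjusted p = 0.021), with a difference between diets of -0.42 (adjusted p = 0.0235).

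In heme scavenging, transport and breakdown, 4 of 16 rose and 5 fell on HFHC (median -0.12), and 4 rose and 2 fell on CDAHFD (median 0.13). Flvcr1, a transporter first described as a heme exporter, averaged 296 ± 52.4 with the Mdm2 ASO and 74.3 ± 12.7 in controls on HFHC (1.99, SE 0.17, adjusted p = 2.5e-05). Blvra, which reduces the biliverdin that heme oxygenase makes, averaged 496 ± 40.4 and 230.4 ± 19.9 (1.10, adjusted p = 3.6e-05). Blvrb, the other biliverdin reductase in the list, went the other way at 2142 ± 267 and 2765 ± 144 (-0.37, adjusted p = 0.0154). Bach1, a heme-sensing repressor of Hmox1, averaged 1161 ± 289 and 581 ± 55.4 (0.97, adjusted p = 0.00157), and Hmox2, the constitutive heme oxygenase, rose by 0.46 (adjusted p = 0.00147). Mafk, a small Maf partner of Bach1, fell by 0.47 (adjusted p = 0.0139). On CDAHFD Flvcr1 stood at 129 ± 40.0 and 138 ± 22.3 (adjusted p = 0.708), and the difference between diets was -2.12 (adjusted p = 2.9e-05). The difference was -1.20 for Blvra (adjusted p = 5.5e-05). Blvrb rose by 0.39 on CDAHFD (adjusted p = 0.0262), with a difference between diets of 0.76 (adjusted p = 0.00141).

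Other heme genes passed on CDAHFD, some of them on HFHC too. Hpx, the plasma heme carrier hemopexin, averaged 98259 ± 8899 with the Mdm2 ASO and 157500 ± 18055 in controls (-0.68, adjusted p = 0.0121). Por, the reductase that gives electrons to heme oxygenase and cytochromes P450, rose by 0.80 (adjusted p = 0.00137), and Nfe2l2, the antioxidant regulator NRF2 that activates Hmox1, by 0.26 (adjusted p = 0.0196). Mafg, a small Maf partner of NRF2, rose by 0.51 (adjusted p = 0.00625) but fell by 0.43 on HFHC (adjusted p = 0.0185). Its difference between diets was 0.94 (adjusted p = 3.3e-04). Flvcr2 fell by 0.57 (adjusted p = 0.00359), and by 0.44 on HFHC (adjusted p = 0.0413). Haptoglobin, Hp, which binds free hemoglobin, passed on neither diet, at 82022 ± 3840 and 116420 ± 9342 on HFHC (adjusted p = 0.0961) and 152570 ± 22207 and 177760 ± 12087 on CDAHFD (adjusted p = 0.41). On HFHC its Mdm2 ASO libraries nonetheless lay below all controls (77639 to 84793 against 103130 to 124790).

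Heme synthesis had 1 of 14 higher and 6 lower on HFHC (median -0.22), and 2 higher and 2 lower on CDAHFD (median 0.15). Alas2, the first enzyme of the pathway in red cell precursors, was the one that rose on HFHC, at 2079 ± 446 and 1056 ± 169 (0.97, adjusted p = 0.00134), beside the red cell markers given above. The part of red cell RNA in this value was not tested. The enzymes Uros (-0.47, adjusted p = 0.00402), Alad (-0.40, adjusted p = 0.00693) and Urod (-0.33, adjusted p = 0.0147) fell. Urod and Mafk did not pass without Mdm2 ASO replicate 9. On CDAHFD Alas1, the rate-limiting enzyme in hepatocytes, averaged 28851 ± 4486 and 14823 ± 3953 (0.98, adjusted p = 0.00181), while Clpx, a mitochondrial unfoldase that acts on its product, averaged 2626 ± 885 and 6232 ± 1553 (-1.27, adjusted p = 0.00179). Alad rose by 0.30 there (adjusted p = 0.0369, not passed in 10 of 17 alternatives). For the difference between diets 4 of 14 were higher and 0 lower, among them Alad (0.70, adjusted p = 5.1e-04), Uros (0.71, adjusted p = 5.5e-04) and Abcb6, a porphyrin transporter (1.00, adjusted p = 0.00383).

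**Figure D5:**
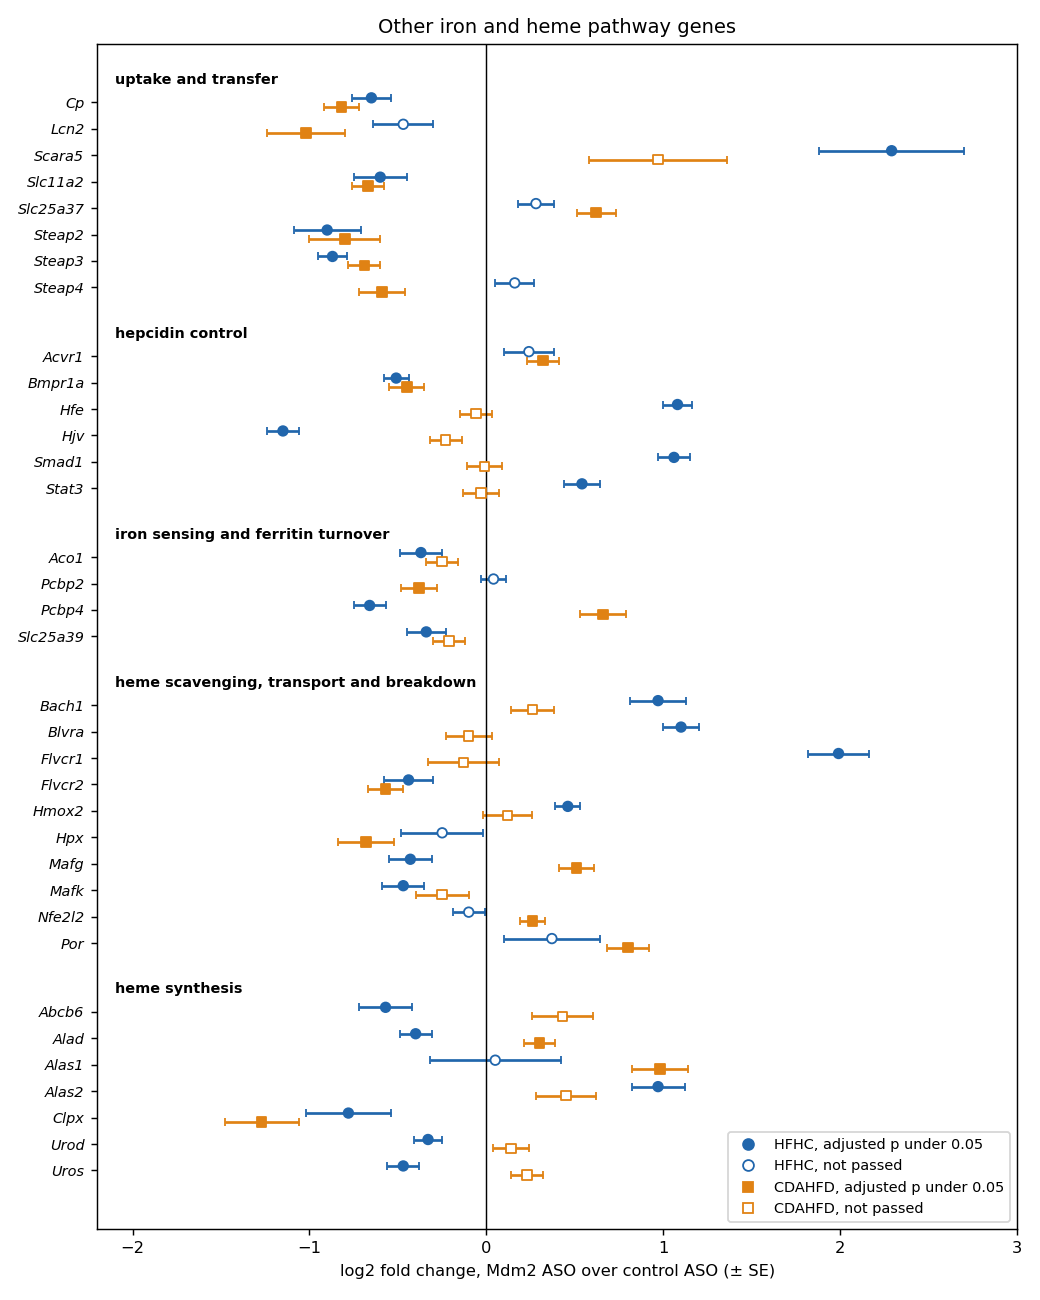
Log2 fold change, Mdm2 ASO over control ASO, of other pathway genes in their 5 lists, on HFHC (circles) and CDAHFD (squares) with bars of 1 standard error. Filled symbols passed an adjusted p of 0.05. Cp, Steap2, Steap3, Slc11a2, Bmpr1a and Flvcr2 are among those filled left of 0 on both diets. Pcbp4, Mafg and Alad are among those filled on opposite sides.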

How the data were processed

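Liver RNA was made into strand-specific mRNA libraries, per the labels' protocols. The submitters' processing notes name STAR 2.7.10b, featureCounts of Subread 2.0.3 and the build GRCm39. Whether counting used strand is not given in the sources used here. The deposited values are a signal, TMM-normalized counts per the labels, in 1 table per diet of 33235 genes with 0 columns outside the series. Dividing a library's values by 1 constant gave whole reads for 100% of them (within 0.001). The 18 samples make 17 libraries, as Mdm2 ASO replicates 6 and 7 on HFHC are identical.

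A gene entered the tests when its value reached 1 in at least the number of libraries of the smaller group. The test was limma-trend (limma 3.58.1, R 4.3.3) within a diet, on log2(value + 0.5), and fold changes are on that scale, which understates low genes. Significance was a Benjamini-Hochberg adjusted p under 0.05 over all genes. Differences between diets are interaction contrasts. On recovered reads, edgeR 4.0.16 called 5335, 2186 and 3803 genes on HFHC, on CDAHFD and for the difference, and DESeq2 1.42.0 was a further alternative. The models were tested on simulated data.

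The members and lists were chosen with earlier results of these data known. Of each pathway list, the genes named are up to 5 passing per diet and up to 3 for the difference, by smallest p, and of each marker list up to 3 defining genes. Some pathway genes are named outside this rule, with their values already seen. They are Bmp6, Id1, Smad6, Smad7, Atoh8, Tmprss6, Blvrb, Hp and transferrin (Trf in the files). The markers named outside the rule are C1qa, C1qb, C1qc, Csf1r, Cd5l, Folr2, Marco, Gpnmb, Spp1, Itgad, Nkx2-5 and Tlx1. Also outside it are Steap2 on CDAHFD, and Mafg and Flvcr2 on HFHC. Promoter windows are RefSeq's and transcripts and exon lengths GENCODE M21's, both on GRCm38, so no coordinates of the counting build are given. The marker Ahsp was not matched. Some genes that the rule would name are not reported here.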

Additional observations from a re-analysis of the deposited data

Results flagged for a closer look

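In 1 of 30 groups of 4 or 5 libraries tested for a library far from the others, the control ASO group on CDAHFD, replicate 3 had the lowest Ftl1, 47955 normalized counts, with a gap of 0.831 of the group's range. Chance flags about 1 in 20 such groups.

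The Mdm2 ASO effect differed between diets, as the CDAHFD effect minus the HFHC effect on the log2 scale (limma-trend interaction contrast, Benjamini-Hochberg adjusted p under 0.05), for these genes among others. Of the members, whose choice used these values, it was -1.50 for Tfrc, -3.14 for Hmox1, -4.04 for Spic and 0.60 for Ftl1. Among genes of uptake and hepcidin control it was -0.75 for Steap4, -1.14 for Hfe, -1.06 for Smad1 and 0.92 for Hjv. In the Pcbp family it was 1.33 for Pcbp4 and -0.42 for Pcbp2. Among heme genes it was -2.12 for Flvcr1, -1.20 for Blvra, 0.94 for Mafg, 0.70 for Alad, 0.71 for Uros and 1.00 for Abcb6. Ftl1 did not pass without HFHC library 6-7 (0.48). Pathway genes are given here up to 3 per list, by smallest p, and further ones passed.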

How the results depend on the processing

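Each value was recomputed under 15 alternatives on HFHC, 17 on CDAHFD and 25 for the difference. Hmox1, Spic and Tfrc on HFHC, Hmox1 on CDAHFD, and the differences of Hmox1, Spic and Tfrc kept their sign and passed in all of them. The members were chosen with values of these same libraries in view, so this describes the effect of processing only. On HFHC, 5 members passed in place of 3 with replicates 6 and 7 kept as separate samples, which adds Ftl1 (-0.50) and Hamp2 (-2.79). Ftl1 also passed with edgeR and DESeq2, and Hamp2 without control replicate 1 (-2.76). On CDAHFD, 2 members passed in place of 1 with DESeq2, and 1 to 2 when single replicates were left out, where Spic passed without Mdm2 ASO replicate 7 (-0.86). Leaving out single replicates gave 1232 to 2283 genes on CDAHFD, 3684 to 5021 on HFHC, and 22 to 37 other pathway genes on HFHC. Fewer samples remain in these fits. DESeq2 called 2956 genes on CDAHFD. With quantile scaling, HFHC calls split into 2482 higher and 3725 lower, and with library size into 3391 and 1460, in place of 2932 and 2399, and the median of all genes was -0.11 and 0.10. For the difference the split was 2440 and 1961, and 965 and 2665, in place of 1606 and 2226. The difference of Hamp was 0.12 with edgeR and 0.13 with DESeq2, and that of Slc40a1 was -0.10 without HFHC Mdm2 ASO replicate 9. Among other pathway genes on HFHC, Aco1 did not pass in 8 of 15 alternatives, Slc25a39 in 7, Slc11a2 in 3 (library size, without Mdm2 ASO replicate 9 or 10), and Mafk and Urod in 1, without Mdm2 ASO replicate 9. On CDAHFD, Alad did not pass in 10 of 17, Acvr1 in 7, Pcbp2 in 3 (without Mdm2 ASO replicate 7, control 2 or control 4) and Nfe2l2 in 3 (library size, without Mdm2 ASO replicate 8 or control 4). The cause was not tested. Replicate numbers recur between diets. Deviations of same-numbered libraries correlated weakly (-0.0659 to 0.105 over 7 pairs). Still, 4 of 7 HFHC libraries correlated best with their own number among 5 CDAHFD libraries of the same treatment. These values do not settle whether the numbers mark pairs, and the main fit does not pair them. With the replicate block, 3033 genes, 3 members and 18 other pathway genes passed for the difference, while Ftl1 (0.53) and Pcbp2 did not. Depth limits the members with few reads, such as Cd163, with 6 reads in its lowest library, and Hamp2, with 17.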
